A study of Mus musculus with 24 samples.

Results

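The CCN family consists of secreted matricellular proteins, and 5 of its genes, Cyr61, Ctgf, Nov, Wisp1 and Wisp2, were followed by their symbols through the count table of mouse heart RNA. All 5 were found among the 21878 genes of that table, and all 5 passed the filter on low counts, which left 13501 genes for testing. In current RefSeq nomenclature these genes are Ccn1, Ccn2, Ccn3, Ccn4 and Ccn5, and the older symbols are used here because the table carries them. They lie on mouse chromosomes 3, 10, 15, 15 and 2. Wisp3, the sixth family gene (Ccn6, chromosome 10), had 0 to 5 counts per library and did not pass the filter.

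RNA was sequenced from mouse hearts taken 3 weeks after myocardial infarction (MI). Every mouse had been ovariectomised and had received adeno-associated virus serotype 9 (AAV9). The groups were AAV9 overexpressing miR-21 with swimming (miR-21 swimming, 5 libraries), AAV9-Empty with swimming (empty vector swimming, 6 libraries), AAV9 overexpressing miR-21 without it (miR-21 control, 6 libraries) and AAV9-Empty without it (empty vector control, 6 libraries). Ovariectomy, the viral vector and MI were thus shared by all 4 groups, so no group shows a heart without them. The labels give neither the promoter of the vector, nor the age or strain of the mice, nor the region of the heart, and they do not state whether the libraries are from separate mice. P-values therefore measure the spread between libraries, which may be technical in part. In RNA of whole tissue, fewer cells of a type and less RNA per cell cannot be told apart.

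CCN proteins are built from modules that bind growth factors, matrix and integrins, and they act on cells mainly from the extracellular matrix. Cyr61 and Ctgf are classical targets of the YAP and TAZ co-activators with TEAD factors, Ctgf is also a target of TGF-beta and a marker of fibrosis in injured hearts, and Wisp1 was named as a gene induced by Wnt1. Wisp2 lacks the carboxy-terminal cystine-knot module of its relatives, and in the mouse heart it has been described as opposing fibrosis. miR-21 is a microRNA that rises in injured hearts and is abundant in cardiac fibroblasts.

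The microRNA that was overexpressed and its matches in the 3′ untranslated regions (UTRs) of CCN transcripts are shown because they define which members carry its seed complement. The mature sequence, credited to RefSeq (GRCm38.p6, chr11:86584120-86584141, minus strand), has its seed, bases 2 to 8, in capitals.
miR-21a-5p: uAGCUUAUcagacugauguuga
In the 3′UTRs of the GENCODE M21 transcripts (GRCm38), the complement of bases 2 to 8, ATAAGCT, occurred in Wisp1 alone of the 5 members, at 2 places. It was present in 7.25% of 20829 3′UTRs, which differ in length. The Wisp1 3′UTR had 3747 bases, against 690 in Cyr61, 1608 in Ctgf, 1534 in Nov and 709 in Wisp2. A longer 3′UTR has more places where such letters can occur. The shorter complement of bases 2 to 7, TAAGCT, which lies inside the longer one, occurred 3 times in Wisp1 and once each in Nov and Wisp2, and was present in 23.6% of 3′UTRs. The first such match of each gene is given with its flanks and the match in capitals.
Nov, position 181 of its 3′UTR, chromosome 15: agaatcaaggTAAGCTcaggatatgg
Wisp1, position 423 of its 3′UTR, chromosome 15: gacacaggaaTAAGCTattattttac
Wisp2, position 287 of its 3′UTR, chromosome 2: cctttaaagcTAAGCTgtactgggca
Neither match was in the Cyr61 or Ctgf 3′UTR. Such a match describes letters only and is not evidence of binding.

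Libraries held 12744241 to 14657630 counts, and no 2 of them were identical. Heart muscle markers led the tissue lists in every library: the 8 cardiomyocyte markers summed to 59123 to 120742 library-scaled counts (CPM, normalised by TMM), and none of them was at 0. MiR-21 swimming replicate 2 and empty vector control replicates 2 and 5 stood apart. Their adipocyte score, the mean centred log2 CPM of the 5 adipocyte markers tested, was 3.61 to 4.18, against at most 0.76 in the other 20 libraries. In those 3 libraries the 8 macrophage markers summed to 1463 to 2343 CPM, against 333 to 977 CPM elsewhere, and the 8 activated fibroblast markers to 3939 to 6433 CPM, against 324 to 3509 CPM. The cardiomyocyte sum was 59123 to 81038 CPM in them and 89329 to 120742 CPM elsewhere. Results resting on these 3 libraries are given with and without them. The library titles carry numbers under and over 2000. All empty vector swimming libraries and miR-21 swimming replicates 3, 4 and 5 have the higher numbers, and all others the lower ones, so that for swimming under the empty vector the number series and the group cannot be told apart.

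Per length, Ctgf was the most abundant CCN transcript in all 23 libraries. On the authors' FPKM scale (fragments scaled by gene length and library size), the mean level of Ctgf was 100 in miR-21 swimming, 78.3 in empty vector swimming, 58.7 in miR-21 control and 121 in empty vector control hearts. Cyr61 was lower, with mean levels of 37.4, 22.1, 27.9 and 30.8 FPKM in the same order of groups. Wisp2 had mean levels of 24.1 FPKM in miR-21 swimming, 5.54 FPKM in empty vector swimming, 10.7 FPKM in miR-21 control and 38.1 FPKM in empty vector control hearts. Nov (1.81 to 3.17 FPKM by group) and Wisp1 (0.915 to 1.61 FPKM) were far below them, and Wisp3 averaged at most 0.104 FPKM. The order Ctgf, Cyr61, Wisp2, Nov, Wisp1 held in 19 of 23 libraries. Wisp2 exceeded Cyr61 in 3 libraries, and Wisp1 exceeded Nov in 1.

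**Figure D1:**
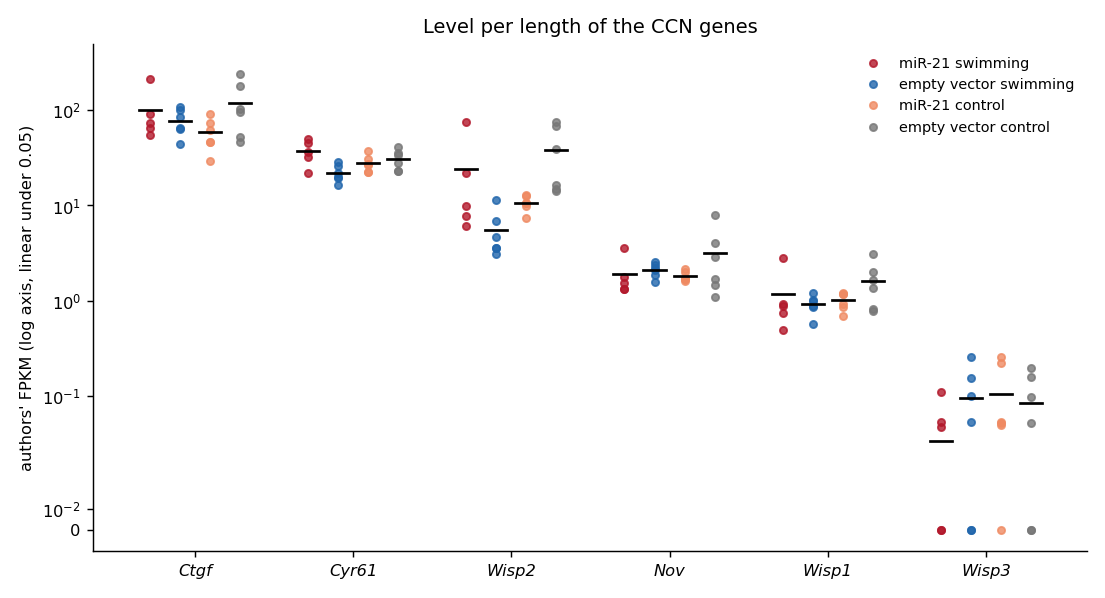
Level per length of the 6 CCN genes, as the authors' FPKM on a log axis that is linear under 0.05. Each point is 1 library and each black bar the mean of a group (5 miR-21 swimming and 6 of each other group); Ctgf lies highest and Wisp3 near 0, and Wisp2 has the widest spread among the 3 abundant genes.

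Wisp2 took its smallest share of the family's message in empty vector swimming hearts. As a share of the summed FPKM of the family, Wisp2 made up 12% ± 7.07 in miR-21 swimming, 4.85% ± 1.48 in empty vector swimming, 11.0% ± 2.44 in miR-21 control and 18.4% ± 7.23 in empty vector control hearts (SD, n = 5, 6, 6 and 6). Ctgf made up 60.2% ± 3.51, 71.1% ± 4.40, 57.0% ± 9.08 and 60.1% ± 13.8 in the same order. These shares were not tested. Every Wisp2 share in empty vector swimming hearts, 3.42% to 7.48%, was below every one in empty vector control hearts, 9.50% to 28.4%.

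Wisp2 and Cyr61 were the members with a change past the threshold. Under the empty vector, swimming came with a 6.71-fold lower Wisp2. With swimming, the miR-21 vector came with 1.68-fold higher Cyr61 and 4.06-fold higher Wisp2. In this comparison the Cyr61 call held in 29 of 32 alternative fits, and the Wisp2 call in 11 of 32. Ctgf, Nov and Wisp1 passed in none of the 5 tests. These calls are edgeR quasi-likelihood tests at a Benjamini-Hochberg adjusted p under 0.05 over all 13501 genes.

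For swimming under the empty vector, 1 of 5 members passed, while 7.46% of all genes tested did. For miR-21 without swimming, 0 of 5 members passed in edgeR, against 2.25% of all genes, although 3 had an unadjusted p under 0.05 and DESeq2 called 1, Wisp2. For miR-21 with swimming, 2 of 5 members passed, against 4.58% of all genes. For swimming under the miR-21 vector, 0 of 5 members passed in edgeR or DESeq2 and 0 had an unadjusted p under 0.05, in a comparison in which 0.17% of all genes passed. For the difference between both effects of swimming (the interaction), 1 of 5 members passed, against 0.541% of all genes. With only 5 members, a share of this kind moves by a large step with each gene.

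**Figure D2:**
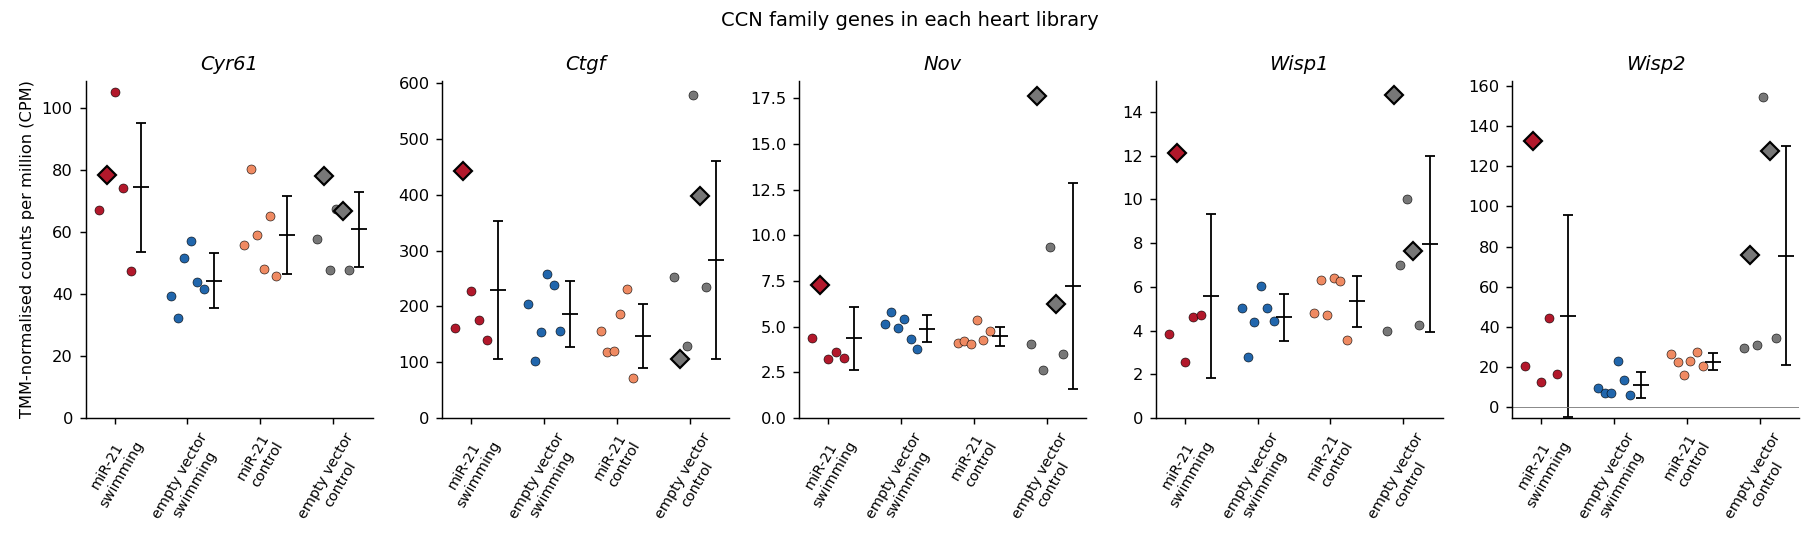
TMM-normalised CPM of the 5 CCN members in each library, on linear axes, with the mean and SD of each group to the right of its points. Diamonds are the 3 libraries with high adipocyte markers; for Wisp2, all 6 empty vector swimming libraries (at most 23.2 CPM) and all 6 miR-21 control libraries (at most 27.7 CPM) lie below the lowest empty vector control library (29.5 CPM).

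Wisp2 encodes the shortened family member. Its levels in miR-21 swimming hearts were 20.8, 132, 12.8, 44.5 and 16.7 CPM in replicates 1 to 5. In empty vector swimming hearts the lowest, median and highest levels were 6.42, 8.51 and 23.2 CPM. They were 16.3, 22.9 and 27.7 CPM in miR-21 control hearts, and 29.5, 55.2 and 154 CPM in empty vector control hearts. The miR-21 control libraries lay close together, whereas the empty vector control libraries fell into 3 between 29.5 and 34.4 CPM and 3 between 76.0 and 154 CPM. The means were 45.5 ± 50.2 CPM in miR-21 swimming, 11.2 ± 6.48 in empty vector swimming, 22.9 ± 4.19 in miR-21 control and 75.6 ± 54.3 CPM in empty vector control hearts (SD). Ordered by mean, empty vector control was highest, then miR-21 swimming, miR-21 control and empty vector swimming, and the ranges of each pair of neighbours overlapped.

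Swimming under the empty vector came with lower Wisp2. The log2 fold change, empty vector swimming over empty vector control, was -2.75 ± 0.57 (SE; edgeR adjusted p = 0.00611), and the groups did not overlap. Groups did not overlap in this comparison for 4.58% of all genes, and for 1 of the 5 members. Without the 3 adipocyte-high libraries the change was -2.48 (edgeR adjusted p = 0.00447), with 11.2 ± 6.48 CPM in 6 empty vector swimming libraries and 62.4 ± 61.4 CPM in 4 empty vector control libraries (SD). Adding the title number series to the model gave -1.11 (edgeR adjusted p = 0.642), a fit in which the contrast rests on the miR-21 swimming libraries of both series. Adding the adipocyte and mesothelial scores to the model gave -1.44 (edgeR adjusted p = 0.0385).

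Without swimming, the miR-21 vector also went with a lower Wisp2 level, short of the threshold. The log2 fold change, miR-21 control over empty vector control, was -1.73 ± 0.54 (SE; edgeR adjusted p = 0.0698). The groups did not overlap, which was so for 1 of the 5 members and for 5.44% of all genes. The change passed in 5 of 32 alternative fits, among them DESeq2 (adjusted p = 0.0252), and its direction held in all 32. Both comparisons share the empty vector control libraries, so their values are not independent.

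With swimming, Wisp2 was higher under the miR-21 vector, and the call depended on 1 library among others. The log2 fold change, miR-21 swimming over empty vector swimming, was 2.02 ± 0.58 (SE; edgeR adjusted p = 0.0486). Without miR-21 swimming replicate 2, which had 132 CPM, it was 1.08 (edgeR adjusted p = 0.179), and without the 3 adipocyte-high libraries it was also 1.08 (edgeR adjusted p = 0.177). The call held in 11 of 32 alternatives. The groups overlapped, with 2 of 5 miR-21 swimming libraries above the highest empty vector swimming library. No member had groups without overlap here, against 3.25% of all genes.

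Under the miR-21 vector, Wisp2 averaged 45.5 ± 50.2 CPM with swimming and 22.9 ± 4.19 CPM without (SD). The log2 fold change was 1.0 ± 0.56 (SE; edgeR adjusted p = 0.331), and 2 of 5 miR-21 swimming libraries lay above the miR-21 control mean. No member had groups without overlap, against 2.76% of all genes. The effect of swimming under the miR-21 vector minus that under the empty vector was 3.75 ± 0.79 on the log2 scale (SE; edgeR adjusted p = 0.0330). That difference was 2.80 without miR-21 swimming replicate 2 (edgeR adjusted p = 0.0711) and 2.53 without the 3 adipocyte-high libraries (edgeR adjusted p = 0.117). It passed in 16 of 31 alternatives, and did not pass with the title number series in the model. The difference includes swimming under the empty vector, which cannot be told apart from that series.

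**Figure D3:**
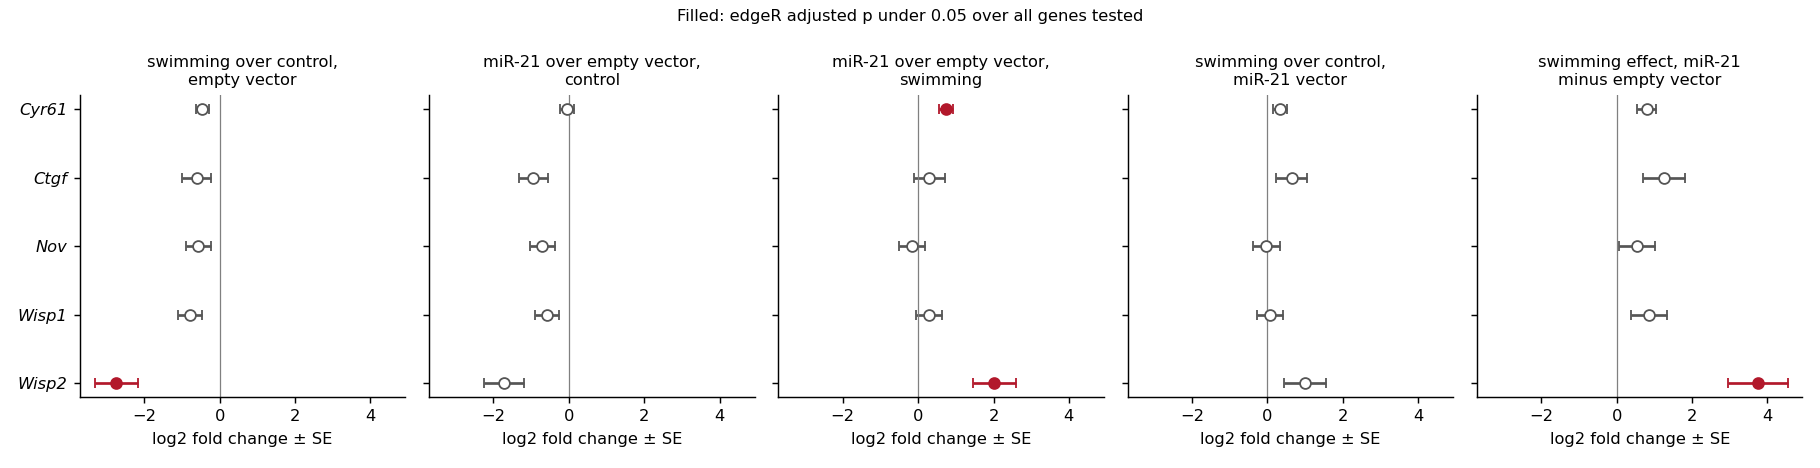
Log2 fold change and SE of the 5 CCN members in the 5 tests, each panel on the same axis; filled red points passed edgeR's adjusted p of 0.05. Wisp2 passed in 3 panels (-2.75, 2.02 and 3.75) and Cyr61 in 1 (0.75); all other points are open.

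Cyr61 is an immediate-early gene whose product binds integrins and promotes angiogenesis. Its levels in miR-21 swimming hearts were 67.2, 78.4, 105, 74.3 and 47.4 CPM in replicates 1 to 5. The lowest, median and highest levels were 32.2, 42.7 and 57.2 CPM in empty vector swimming hearts, 45.7, 57.3 and 80.3 CPM in miR-21 control hearts, and 47.6, 62.3 and 78.1 CPM in empty vector control hearts. Among miR-21 swimming hearts 4 of 5 were above every empty vector swimming heart, and replicate 5 was inside their range.

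With swimming, Cyr61 rose under the miR-21 vector. It averaged 74.5 ± 20.9 CPM in miR-21 swimming and 44.3 ± 8.93 CPM in empty vector swimming hearts (SD, n = 5 and 6), and the fold change was 0.75 ± 0.18 in log2 units (SE; edgeR adjusted p = 0.0225). Without the 3 adipocyte-high libraries the change was 0.73 (edgeR adjusted p = 0.0191). With the title number series added to the fit of all 23 libraries it was 0.77 (edgeR adjusted p = 0.0403). The call was lost in 3 of 32 alternatives, namely without miR-21 swimming replicate 3 (0.59, edgeR adjusted p = 0.0725), without empty vector swimming replicate 2 (0.67, edgeR adjusted p = 0.0590) and in a fit of these 2 groups only (0.75, edgeR adjusted p = 0.0682). Over all alternatives the change ranged between 0.59 and 0.87.

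In the other tests Cyr61 did not pass. The log2 fold change was -0.46 ± 0.18 for swimming under the empty vector (SE; edgeR adjusted p = 0.116), where all 6 empty vector swimming libraries were below the empty vector control mean. It was -0.047 for miR-21 without swimming, with 59.0 ± 12.6 CPM in miR-21 control and 61.0 ± 12.1 CPM in empty vector control hearts (SD, n = 6 each). Swimming under the miR-21 vector gave 0.34 ± 0.18 (SE; edgeR adjusted p = 0.322). The interaction was 0.80 ± 0.25 (SE; edgeR adjusted p = 0.10), and DESeq2 put it past the threshold (adjusted p = 0.0431). By mean level the order was miR-21 swimming, empty vector control, miR-21 control and empty vector swimming, and the ranges of each pair of neighbours overlapped.

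The Cyr61 promoter is printed because Cyr61 is a textbook TEAD target and 1 of the 2 members that passed upward under the miR-21 vector in swimming hearts. It is the one member found in the RefSeq promoter table (GRCm38.p6, chr3:145649936-145650235, minus strand, 250 bases before to 50 after the start), and the capitals mark the match to the TEAD motif GGAATG read on the other strand.
Cyr61 promoter: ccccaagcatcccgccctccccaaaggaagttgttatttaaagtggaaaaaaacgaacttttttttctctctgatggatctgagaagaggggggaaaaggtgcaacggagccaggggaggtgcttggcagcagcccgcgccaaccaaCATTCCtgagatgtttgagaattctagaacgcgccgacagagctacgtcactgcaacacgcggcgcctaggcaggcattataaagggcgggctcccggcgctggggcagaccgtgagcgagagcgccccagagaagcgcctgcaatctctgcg
The TEAD match began 103 bases before the start. GGAATG, on either strand, was in 14.6% of 27025 promoters of this length. TGACG, the core of the cAMP response element, matched 58 bases before the start, again on the other strand, and was in 21% of promoters. The AP-1 motif TGANTCA and the CArG box were also searched on both strands and had no match in this window; they were in 7.93% and 1.57% of promoters.

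Ctgf, the fibrosis marker of the family, spread widely within groups. Its levels in miR-21 swimming hearts were 160, 442, 227, 175 and 139 CPM in replicates 1 to 5. The lowest, median and highest levels were 103, 180 and 259 CPM in empty vector swimming hearts, 71.5, 138 and 231 CPM in miR-21 control hearts, and 106, 244 and 579 CPM in empty vector control hearts. The groups overlapped in every comparison, and the highest level, 579 CPM, was that of empty vector control replicate 4.

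No Ctgf difference passed the threshold. The log2 fold change was -0.95 ± 0.39 for miR-21 without swimming (SE; edgeR adjusted p = 0.128), with 147 ± 56.8 CPM in miR-21 control and 283 ± 178 CPM in empty vector control hearts (SD). It was -0.61 ± 0.38 for swimming under the empty vector (SE; edgeR adjusted p = 0.362), 0.30 ± 0.40 for miR-21 with swimming (SE; edgeR adjusted p = 0.726) and 0.64 ± 0.40 for swimming under the miR-21 vector (SE; edgeR adjusted p = 0.383). The sign for miR-21 with swimming turned without miR-21 swimming replicate 2 (-0.077). The interaction was 1.25 ± 0.56 (SE; edgeR adjusted p = 0.201).

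Nov and Wisp1 were the sparse members, with 33 to 264 counts per library. Nov binds integrins and Notch1. Nov had 4.35, 7.29, 3.20, 3.61 and 3.30 CPM in miR-21 swimming replicates 1 to 5. Its lowest, median and highest levels were 3.75, 5.03 and 5.79 CPM in empty vector swimming hearts, 4.05, 4.24 and 5.34 CPM in miR-21 control hearts, and 2.64, 5.13 and 17.6 CPM in empty vector control hearts. Outside replicate 2 of both the miR-21 swimming and the empty vector control groups, and outside 2 further empty vector control libraries, Nov stayed within 2.64 to 5.79 CPM.

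Wisp1, known as a Wnt-inducible gene that is active in fibroblasts, had 3.83, 12.1, 2.58, 4.64 and 4.70 CPM in miR-21 swimming replicates 1 to 5. Its lowest, median and highest levels were 2.79, 4.72 and 6.06 CPM in empty vector swimming hearts, 3.55, 5.52 and 6.43 CPM in miR-21 control hearts, and 3.97, 7.33 and 14.8 CPM in empty vector control hearts. The highest value in the miR-21 swimming and in the empty vector control group stood in a library with high adipocyte markers, and all groups overlapped.

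Neither gene passed in any of the 5 tests. For swimming under the empty vector, the log2 fold change was -0.79 ± 0.33 for Wisp1 (SE; edgeR adjusted p = 0.148) and -0.57 ± 0.33 for Nov (SE; edgeR adjusted p = 0.312). Wisp1 passed there in 1 of 32 alternatives, without miR-21 swimming replicate 2 (edgeR adjusted p = 0.0471). For miR-21 without swimming it was -0.70 ± 0.33 for Nov (SE; edgeR adjusted p = 0.169) and -0.58 ± 0.33 for Wisp1 (SE; edgeR adjusted p = 0.238). For miR-21 with swimming it was -0.16 for Nov and 0.28 for Wisp1, and for swimming under the miR-21 vector it was -0.028 for Nov and 0.073 for Wisp1. Without the 3 adipocyte-high libraries Wisp1 averaged 3.93 ± 0.989 CPM in miR-21 swimming, 4.62 ± 1.08 in empty vector swimming, 5.34 ± 1.17 in miR-21 control and 6.31 ± 2.83 CPM in empty vector control hearts (SD).

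The authors' deposited table gives Wisp2 a log2 fold change of -2.75 with an adjusted p of 0.0200 for swimming under the empty vector. For miR-21 with swimming, the authors' deposited table gives Cyr61 a log2 fold change of 0.75 with an adjusted p of 0.0928, and Wisp2 one of 2.02 with an adjusted p of 0.853.

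The members did not move as 1 unit across the 23 libraries. These correlations of log2 CPM describe libraries that share groups and tissue make-up, and carry no test. Wisp1 and Wisp2 went together most closely (Pearson 0.75, Spearman 0.61), and without the 3 adipocyte-high libraries less so (Pearson 0.62, Spearman 0.42). Ctgf and Wisp2 had a Pearson correlation of 0.57 and a Spearman correlation of 0.45. Cyr61 and Ctgf, both TEAD targets, had 0.32 and 0.24 with each other. With the score of YAP/TAZ-TEAD targets other than the CCN genes, Cyr61 had 0.62 and 0.71, and Ctgf 0.69 and 0.56. Nov and Wisp1 had 0.69 and 0.47, which became 0.35 and 0.19 over the other 20 libraries.

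Among the 13123 other genes ranked by Spearman correlation with Wisp2 over the 23 libraries, the genes named among the 5 nearest were Gpx3 (0.94), which encodes a secreted glutathione peroxidase, Adamts10 (0.91), a microfibril-associated member of the ADAMTS family, Mgp (0.91), matrix Gla protein, an inhibitor of calcification, and Itgbl1 (0.90). Over the 20 libraries without high adipocyte markers these correlations were 0.91, 0.88, 0.88 and 0.86 in the same order. Gpx3 averaged 350 CPM in miR-21 swimming, 211 CPM in empty vector swimming, 309 CPM in miR-21 control and 437 CPM in empty vector control hearts.

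**Figure D4:**
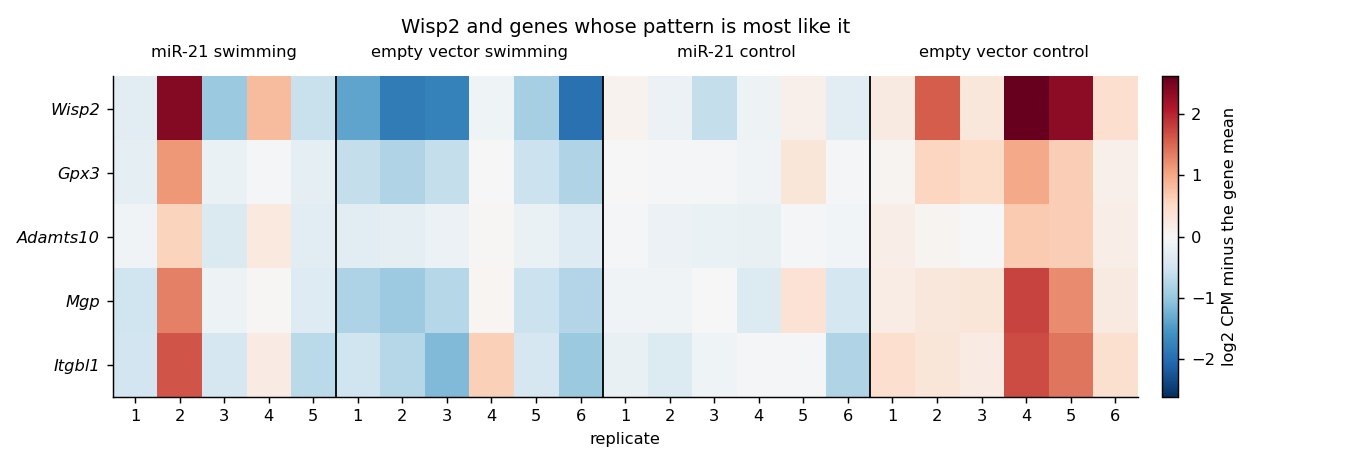
Log2 CPM minus the gene's mean over 23 libraries for Wisp2 and 4 of the 5 genes with the highest Spearman correlation with it (0.90 to 0.94), libraries by group and replicate. Red is above and blue below the mean; miR-21 swimming replicate 2 and empty vector control replicates 4 and 5 are high in all 5 genes shown, and most empty vector swimming libraries are low.

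For the other members the nearest genes had lower correlations. For Ctgf they were Mafk (0.83), a small Maf transcription factor, Adamtsl2 (0.81), Qsox1 (0.81), a secreted sulfhydryl oxidase, Col8a1 (0.80), a collagen chain, and Sardh (0.80). For Cyr61 they were Tbc1d15 (0.84), Vcpkmt (0.77), Wdr91 (0.76), Grhl1 (0.74) and Gnpda1 (0.74). For Nov they were Rbbp8 (0.88), Grn (0.83), Adgrg2 (0.82), Nfatc4 (0.80) and Traf3ip3 (0.80), and for Wisp1 they were Nubp1 (0.81), Arfgap1 (0.77), Elp6 (0.76), Olfml1 (0.75) and Capn6 (0.75).

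Tissue marker scores correlated with the members to differing degrees and in differing directions. Wisp2 had a Pearson correlation of 0.88 with the score of the cartilage-like list, 0.80 with the mesothelial, 0.70 with the adipocyte and 0.68 with the activated fibroblast score. Over the other 20 libraries these were 0.83, 0.67, 0.35 and 0.45. Empty vector control replicate 4, which had the highest Wisp2 level (154 CPM), also had the highest cartilage-like score (3.00) and an activated fibroblast score of 1.5. The 5 tested cartilage-like markers were sparse, and the 7 found summed to 6.23 to 50.2 CPM in miR-21 swimming, 4.6 to 32.9 CPM in empty vector swimming, 3.56 to 17.8 CPM in miR-21 control and 12.7 to 90.1 CPM in empty vector control hearts. Ctgf had a Pearson correlation of 0.53 with the activated fibroblast score and -0.57 with the cardiomyocyte score. Cyr61 had 0.044 with the activated fibroblast score and -0.65 with the endothelial score. The part of these tissue differences in the members' levels was not tested beyond the fit with adipocyte and mesothelial scores.

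Endothelial markers moved opposite to Cyr61 in the swimming groups. For miR-21 with swimming, 0 of 8 endothelial markers rose and 5 fell, among them Cdh5, VE-cadherin (-0.46 ± 0.09 log2, SE; edgeR adjusted p = 0.00624), and none was at 0. Their sum was 1266 to 1481 CPM in miR-21 swimming and 1481 to 1873 CPM in empty vector swimming hearts. For swimming under the empty vector 4 of 8 rose and 0 fell, or 1 and 0 with the title number series in the model. Activated fibroblast markers passed in 0 of 8 for swimming under the empty vector in edgeR and DESeq2, although 3 had an unadjusted p under 0.05, and 2 of 8 fell for miR-21 without swimming. In that test 7 of 8 had an unadjusted p under 0.05. DESeq2 called 7 lower, and so did edgeR with the title number series in the model. With adipocyte and mesothelial scores in the model edgeR called 0 of 8, in a fit in which 9 of all genes passed. Mesothelial markers rose in 5 of 7 for miR-21 with swimming, where their sum was 5.19 to 208 CPM in miR-21 swimming and 7.88 to 13.8 CPM in empty vector swimming hearts. Without the 3 adipocyte-high libraries 0 of 7 rose and 1 fell in edgeR, and 0 passed in edgeR with the title number series in the model. Over all 23 libraries 6 had an unadjusted p under 0.05 and DESeq2 called 6 higher.

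Of 19 YAP/TAZ-TEAD target genes tested other than the CCN members, 1 rose and 1 fell for swimming under the empty vector, with a median log2 fold change of -0.21. Gadd45a, a stress and DNA damage gene, rose (0.57 ± 0.14, SE; edgeR adjusted p = 0.0136), and Tgfb2, a TGF-beta ligand, fell (-1.10 ± 0.28, SE; edgeR adjusted p = 0.0225). For miR-21 with swimming, 1 of 19 rose and 0 fell, with a median of 0.21. That gene was Amotl2, an angiomotin that restrains YAP, with 106 ± 24 CPM in miR-21 swimming and 74.5 ± 8.44 CPM in empty vector swimming hearts (SD; log2 fold change 0.51 ± 0.10, SE; edgeR adjusted p = 0.00629). For miR-21 without swimming, 1 of 19 rose, again Gadd45a, and 0 fell, with a median of -0.31. The counts of this list depended on the fit. With the title number series in the model 0 of 19 passed for swimming under the empty vector, so neither Gadd45a nor Tgfb2 did. With adipocyte and mesothelial scores in the model 1 rose and 1 fell in that test. In the same fit 0 passed for miR-21 without swimming. An unadjusted p was under 0.05 for 8 genes for swimming under the empty vector, 10 for miR-21 without swimming and 7 for miR-21 with swimming. DESeq2 called 2 higher and 5 lower for miR-21 without swimming, and edgeR without the 3 adipocyte-high libraries called 3 higher and 3 lower. In the test of miR-21 with swimming, DESeq2 called 2 higher, and edgeR without the 3 libraries called 5 higher and 2 lower. The median over all genes tested was between -0.005 and 0.03 in every test.

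The 17 Hippo pathway genes tested encode its kinases, the YAP and TAZ co-activators, TEAD factors and other regulators. In the edgeR fit of all 23 libraries without covariates, 0 of them passed in any of the 5 tests. Unadjusted p was under 0.05 for 3, 4, 1, 0 and 1 of them in the order of tests given above, and DESeq2 called 1, in the first test. Without the 3 adipocyte-high libraries 1 rose and 1 fell for miR-21 with swimming. With adipocyte and mesothelial scores in the model, edgeR called 1 higher and 3 lower for swimming under the empty vector. In that fit 1 was higher and 2 were lower for miR-21 with swimming, with a median of -0.065. Without covariates and over all 23 libraries, the medians of the list stayed between -0.03 and 0.03. Wwtr1, which encodes TAZ, had a log2 fold change of -0.14 ± 0.07 for miR-21 with swimming (SE; edgeR adjusted p = 0.247), and the TEAD factor gene Tead4 had 0.34 ± 0.13 for swimming under the empty vector (SE; edgeR adjusted p = 0.102).

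TGF-beta pathway genes had 1 of 18 raised for swimming under the empty vector, the latency protein gene Ltbp1 (0.44 ± 0.09 log2, SE; edgeR adjusted p = 0.00573), and 1 of 18 lowered for miR-21 without swimming, the SMAD repressor gene Skil (-0.46 ± 0.12, SE; edgeR adjusted p = 0.0450). In that second test 9 of 18 had an unadjusted p under 0.05. DESeq2 called 6 lower there, and edgeR with the title number series in the model called 5 lower. With adipocyte and mesothelial scores in the model edgeR called 0. For swimming under the empty vector edgeR called 0 with the title number series in the model, so Ltbp1 did not pass. With adipocyte and mesothelial scores it called 3 higher and 0 lower. Of 7 Wnt targets tested, Ccnd1, cyclin D1, was the one that passed. Ccnd1 rose for swimming under the empty vector (0.66 ± 0.12 log2, SE; edgeR adjusted p = 0.00181) and fell for miR-21 with swimming (-0.94 ± 0.12, SE; edgeR adjusted p = 0.000258), with 71.0 ± 17.9 CPM in miR-21 swimming and 136 ± 17.2 CPM in empty vector swimming hearts (SD).

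Receptors that bind CCN proteins had 0 of 14 raised in the 5 tests. In each of 3 tests, in which 7.46%, 2.25% and 4.58% of all genes passed, 1 receptor gene was lowered. The gene was Itga5, the fibronectin receptor chain, for swimming under the empty vector (-0.32 ± 0.09 log2, SE; edgeR adjusted p = 0.0288). It was Itgb3 for miR-21 without swimming (-1.21 ± 0.32, SE; edgeR adjusted p = 0.0490) and Itga6, a laminin receptor chain, for miR-21 with swimming (-0.61 ± 0.12, SE; edgeR adjusted p = 0.00378). Itga6 had 82.6 ± 12.6 CPM in miR-21 swimming and 126 ± 14.3 CPM in empty vector swimming hearts (SD). Counts of lowered receptors for miR-21 without swimming were 3 in DESeq2 and 3 with the title number series in the model. Without the 3 adipocyte-high libraries they were 2 for miR-21 without and 2 for miR-21 with swimming. Adipocyte and mesothelial scores in the model left 0 past the threshold for miR-21 without swimming and 3 lowered for miR-21 with swimming. In that fit 2 were raised and 0 lowered for swimming under the empty vector. With the title number series in the model 0 passed for swimming under the empty vector, so Itga5 did not. In that fit 3 were raised for swimming under miR-21.

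Among other matricellular genes, Comp went the way of Wisp2, but unlike Wisp2 it did not pass for miR-21 with swimming. Comp, cartilage oligomeric matrix protein, fell by 4.16 ± 0.89 log2 for swimming under the empty vector (SE; edgeR adjusted p = 0.00802), with 7.84 ± 10.8 CPM in empty vector swimming and 141 ± 117 CPM in empty vector control hearts (SD). It also fell for miR-21 without swimming (-3.44 ± 0.85, SE; edgeR adjusted p = 0.0440), and its interaction was 6.28 ± 1.22 (SE; edgeR adjusted p = 0.0291). Fbln1, fibulin 1, fell for swimming under the empty vector (-1.29 ± 0.26, SE; edgeR adjusted p = 0.00432) and also had an interaction past the threshold (1.78 ± 0.37, SE; edgeR adjusted p = 0.0291). Sparcl1 went the other way: it rose for swimming under the empty vector (0.49 ± 0.08, SE; edgeR adjusted p = 0.00135) and fell for miR-21 with swimming (-0.42 ± 0.09, SE; edgeR adjusted p = 0.00693). In all, 1 of 16 rose and 3 fell in the first test (median -0.63). For miR-21 without swimming 0 rose and 1 fell (median -0.94), and in the interaction 2 rose (median 1.22). For miR-21 with swimming 0 rose and 2 fell. With the title number series in the model 1 rose and 0 fell in the first test, so the falls of Comp and Fbln1 did not pass. With adipocyte and mesothelial scores in the model 1 rose and 2 fell there. For miR-21 without swimming 13 of 16 had an unadjusted p under 0.05, and DESeq2 called 10 lower. In that test edgeR called 7 lower with the title number series in the model and 3 lower without the 3 adipocyte-high libraries. With adipocyte and mesothelial scores in the model it called 0 there. In the interaction 9 of 16 had an unadjusted p under 0.05 and DESeq2 called 4 higher and 1 lower. Both interaction calls, Comp and Fbln1, were lost in edgeR without the 3 libraries, with tissue scores and with the title number series, which each left 0 of 16 past the threshold. Without the 3 libraries the medians were -0.25, -0.54 and 0.18.

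**Figure D5:**
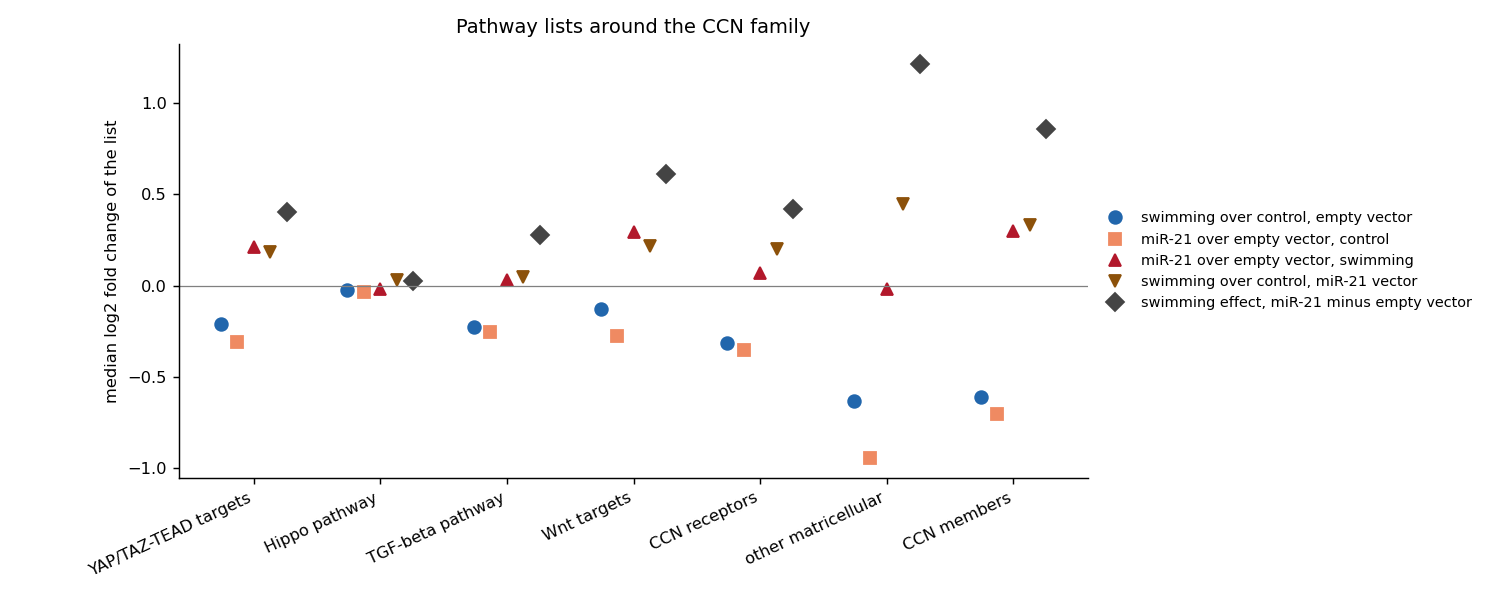
Median log2 fold change of 6 gene lists and of the 5 CCN members in the 5 tests; the horizontal line is 0. The other matricellular genes (-0.94 to 1.22) and the CCN members (-0.70 to 0.86) spread farthest from 0, and the Hippo pathway genes stay within 0.03 of it.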

How the data were processed

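Libraries were prepared from TRIzol RNA with a TruSeq stranded mRNA kit, per the labels' protocols. The build was GRCm39, per the submitters' processing notes, and neither aligner nor counter was named. The authors deposited raw counts and FPKM per gene and library. In the authors' deposited comparison tables, log2 fold changes and fold changes compare group means, with p-values and q-values by a tool not named there. Counts were used for every test and FPKM only to compare genes per length; 46 other per-sample columns were not used. Replicate 6 of miR-21 swimming was not used here. The 23 libraries of 4 groups entered 1 edgeR quasi-likelihood fit (edgeR 4.0.16, R 4.3.3; robust, filterByExpr, TMM, no covariate), with Benjamini-Hochberg adjustment over 13501 genes and a threshold of 0.05. Log2 CPM used a prior count of 2. The SE is the log2 fold change divided by the square root of F. DESeq2 1.42.0, other scalings and filters, covariates, subsets and leaving out each library were alternatives. In simulated counts for swimming under the empty vector, 79 of 100 genes changed by 1 log2 unit and 97 of 100 changed by 2 were called, with 7 false calls among 13214. Those counts were drawn for each gene independently and held no tissue differences and no number series. They therefore do not give the rate of false calls in the real libraries. Named genes were the members, the 5 genes most like each by Spearman correlation, and, per list and test, up to 3 changed genes (or 2 unchanged, given as values) ordered by p. One gene near Wisp2 is not reported here. Members and lists were chosen with earlier results of these data known. Figures used matplotlib 3.10.9.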

Additional observations from a re-analysis of the deposited data

Results flagged for a closer look

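In miR-21 swimming hearts, replicate 2 stood above its nearest neighbour in 4 of the 5 members by a gap past Dixon's criterion for 5 values. Wisp2 was at 132 CPM there, against 44.5 CPM in the next highest library. Ctgf was at 442 CPM, against 227 CPM, Wisp1 at 12.1 CPM, against 4.70 CPM, and Nov at 7.29 CPM, against 4.35 CPM. Cyr61 at 78.4 CPM lay inside the range of its group. The gap over the range was 0.7104 for Ctgf and 0.718 for Nov, just past the critical value of 0.71. For values with a normal distribution chance marks about 1 in 20 sets in this way, and 20 sets (5 genes in 4 groups) were examined. The criterion was applied to CPM on the linear scale, where a normal distribution is not given, so its rate here is not known. All 4 flags are from 1 library, so they are not independent. The same library had the highest mesothelial score (4.76) and an adipocyte score of 3.61.

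The effect of swimming on Wisp2 differed between the vectors: the effect under miR-21 minus that under the empty vector was 3.75 ± 0.79 on the log2 scale (SE; edgeR adjusted p = 0.0330). Without miR-21 swimming replicate 2 it was 2.80 (edgeR adjusted p = 0.0711). The call held in 16 of 31 alternatives, and in 11 of the 23 fits that left out 1 library each. It was lost without the 3 adipocyte-high libraries, with tissue scores in the model and with the title number series in the model.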

How the results depend on the processing

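The lower Wisp2 for swimming under the empty vector passed in 31 of 32 alternatives (log2 fold change -3.09 to -1.11), and the higher Cyr61 for miR-21 with swimming in 29 of 32 (0.59 to 0.87). That Wisp2 change did not pass with the title number series in the model (-1.11, edgeR adjusted p = 0.642). Of its 32 alternatives, 23 left out 1 library each, and such fits cannot separate this group difference from the number series. Wisp2 passed in 11 of 32 for miR-21 with swimming (0.83 to 2.37) and in 16 of 31 for the interaction (1.77 to 4.09), with the same direction in all. Wisp1 and Nov rest on as few as 33 counts in a library, which limits their precision. No paired analysis was possible because each library has a number of its own in the labels.

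Counts of members called were as follows, tests in the order used above: swimming under the empty vector (1), miR-21 without swimming (0), miR-21 with swimming (2), swimming under miR-21 (0) and the interaction (1). With the title number series as a term they were 0, 1, 1, 0 and 0, and the contrast within 1 series, which is the same fit and is counted once, gave 1 for miR-21 without and 1 for miR-21 with swimming. With tissue scores, and also without the 3 adipocyte-high libraries, they were 1, 0, 1, 0 and 0. Without a filter and with upper quartile scaling miR-21 with swimming had 1. In fits of 2 groups the miR-21 tests had 1 without and 0 with swimming. DESeq2 called 1, 1, 2, 0 and 2. Leaving out each library gave 1 to 2, 0 to 1, 0 to 2, 0 and 0 to 2.

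Over all genes the counts were 1007, 304, 618, 23 and 73. They were 164, 911, 707, 1076 and 25 with the title number series (911 and 1076 are also the contrasts within 1 series), 2258, 9, 2308, 190 and 79 with tissue scores, 1555, 771, 2318, 134 and 53 without the 3 libraries, and 1427, 1219, 960, 395 and 754 in DESeq2. Without a filter, miR-21 without swimming had 150 and swimming under miR-21 had 0. Upper quartile scaling gave 41 for swimming under miR-21. Fits of 2 groups gave 1622 for miR-21 without swimming, 165 for miR-21 with swimming and 0 for swimming under miR-21. Leaving out each library gave 607 to 1922, 17 to 2885, 330 to 1871, 0 to 86 and 18 to 358. The cause was not tested.

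Signs that turned all belonged to changes that did not pass. For swimming under the empty vector, the title number series gave Ctgf 0.14, Nov 0.23 and Wisp1 0.23, and tissue scores gave Nov 0.29 and Wisp1 0.062. For miR-21 without swimming, tissue scores gave Cyr61 0.031 and Wisp1 0.039, and Cyr61 was 0.095 without the 3 libraries and between -0.16 and 0.051 without single ones. For miR-21 with swimming, Ctgf was -0.045 with the title number series, -0.00096 with tissue scores, -0.081 without the 3 libraries and -0.077 to 0.43 without single ones; Wisp1 was -0.22, -0.32, -0.23 and -0.22 to 0.46. For swimming under miR-21, Nov was 0.39 with the title number series, 0.00062 with upper quartile scaling and -0.30 to 0.064 without single libraries; Wisp1 was -0.30 with tissue scores, -0.44 without the 3 libraries and -0.43 to 0.25 without single ones. In the interaction, Nov was -0.59 with tissue scores and -0.29 without the 3 libraries, and Wisp1 -0.36 with tissue scores.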
